A study of Homo sapiens with 6 samples.

Results

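Keratin genes were examined in the human liver cancer line HepG2, an established cell line. The 9 members are KRT7, KRT8, KRT18, KRT19, KRT23, KRT37, KRT80, KRT81 and KRT86, taken by gene name from the 29153 genes of the deposited table. KRT37 was picked for its rise in the knockdown, so its change is given as a description with no test. RNA was sequenced from 3 libraries of cells that had received lentivirus with a control hairpin (sh-NC, genotype labelled Control) and 3 libraries of cells that had received lentivirus with a hairpin against the long noncoding RNA LINC01977 (sh-LINC01977, genotype labelled LINC01977 knockdown), each at 72 h. All 6 libraries thus came from the same line and had been exposed to a lentivirus. The labels do not say whether the libraries of a group came from separate cultures, so p-values measure only the spread between these libraries, which may be technical.

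Keratins are the intermediate filament proteins of epithelial cells. Type I (acidic) keratins assemble in pairs with type II (basic to neutral) keratins, and the genes of the types lie in clusters on chromosomes 17 and 12, with KRT18 as the type I gene in the type II cluster. Adult hepatocytes carry KRT8 and KRT18, to which bile duct cells add KRT7 and KRT19, while KRT37, KRT81 and KRT86 are best known as hair keratins. KRT80 is an epithelial type II keratin and KRT23 a type I keratin of simple epithelia.

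Total counts lay between 49929024 and 60441515 per library. The targeted gene LINC01977 was close to undetected in both groups, with counts of 4, 0 and 16 in sh-NC and 0, 0 and 4 in sh-LINC01977, so its loss was not detectable at this depth and libraries were grouped by their labels. All 9 genes of a list of hepatocyte products passed the filter on low values, with a summed FPKM (fragments scaled to transcript length and library total) of 4893 to 5278 in sh-NC. Of the 13452 genes past that filter, a mean FPKM of at least 0.5 over the 6 libraries, 7.05% were called higher and 8.07% lower in sh-LINC01977 by edgeR's quasi-likelihood test at an adjusted p under 0.05.

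Parts of several members have near copies or overlapping genes, which bears on every count below, since it is not stated whether counting used strand. KRT81 lies wholly inside the interval of KRT86 on the opposite strand, and 38.4% of the 50-base windows of its main transcript also occur in KRT86. The coding sequences of these hair keratins were 94.2% identical, with 85 differing bases of 1454 aligned.

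KRT37 (chr17:41420753-41424523, minus strand) lies wholly inside AC003958.2 on the opposite strand, with which it shares 33.7% of its windows, and its coding sequence was 93.9% identical to that of KRT38. KRT8 and KRT18 share only 61.5% of aligned coding bases, but the gene intervals overlap by 1084 bases head to head. On either strand, 36.9% of the windows of KRT8 and 47.6% of those of KRT18 recur in other genes, many of them processed pseudogenes. The gene sharing most with KRT18 was KRT8 itself, with 21.5% of the windows of KRT18. The 14 listed KRT8 pseudogenes held 0.385% to 0.549% as many counts as KRT8, and the 19 listed KRT18 pseudogenes 0.127% to 0.253% as many as KRT18. KRT19, KRT23 and KRT80 shared 1.79%, 4.95% and 0.42% of their windows, so by this measure their counts are the least open to such splitting. KRT23, however, lies wholly inside AC004231.1 on the opposite strand, which had at most 2 counts in a library. KRT7 shared 10.8% of its windows and overlaps KRT86 on the same strand and KRT87P and KRT7-AS on the opposite strand.

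In the control libraries 3 keratins made up nearly all of the keratin RNA. KRT19 had a mean FPKM of 151 ± 9.4, KRT8 126 ± 8.9 and KRT18 125 ± 3.9 (SD, n = 3), and together they held 97.3% to 98.1% of the members' summed FPKM in every library of both groups. KRT8 and KRT18 overlapped between libraries in both groups, so their order was not resolved, while KRT19 lay above them. That order depends on the length used: per kilobase of the main annotated transcript, KRT8 came to 515 ± 34.2 CPM (counts scaled to the library total and its TMM factor), KRT18 to 324 ± 6.7 and KRT19 to 319 ± 17.6. KRT23 followed with a mean FPKM of 6.10, KRT80 with 2.36, KRT37 with 0.414, KRT81 with 0.222 and KRT7 with 0.156. Only KRT37 and KRT81 overlapped among these neighbours in sh-NC. Here too the order turns with the length used, since per kilobase of the main transcript KRT37 came to 0.528 CPM, KRT7 to 0.499 and KRT81 to 0.285. KRT86 was listed at 0 in all 3 sh-NC libraries and had 8 counts in 1 of 3 sh-LINC01977 libraries, so neither a level nor a change was detectable, and 0 counts allow up to 3 per library. By these levels KRT8, KRT18 and KRT19 made up most keratin RNA of these cells, and the hair keratins were present at traces.

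**Figure D1:**
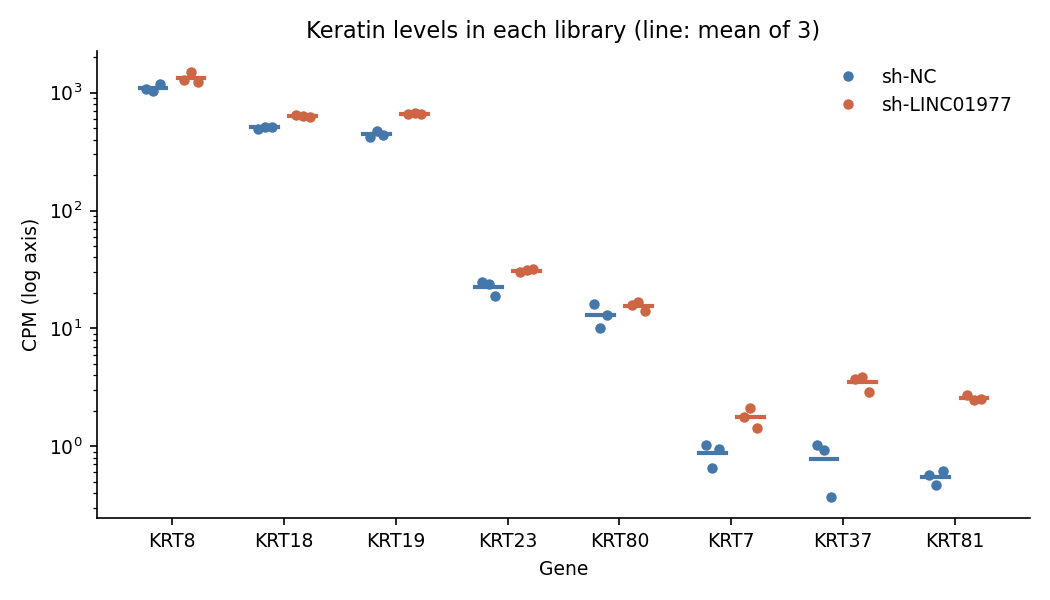
CPM of 8 keratin members (log axis) in each sh-NC library (blue) and sh-LINC01977 library (orange), with a line at the mean of 3; KRT86, at 0 in 5 of the 6 libraries, is not drawn. KRT18, KRT19, KRT23, KRT7, KRT8, KRT37 and KRT81 do not overlap between groups, while KRT80 does.

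Most keratin members lay higher in sh-LINC01977. KRT18, KRT19, KRT23 and KRT81 were called higher, so 4 of the 6 members past the filter other than KRT37, against a background of 7.05%, and 0 were called lower, against 8.07%. The median log2 fold change of these 6 was 0.40, beside -0.0010 over all tested genes, and 6 of 6 were above 0, as were 49.8% of tested genes. In 5 of 6 the CPM of the groups did not overlap, which held, in the upward direction, for 18.8% of tested genes. KRT81 passed the filter only through its level in sh-LINC01977, so these counts describe the members that passed and are no support of their own. In a fit of all listed genes, which needs no filter, KRT18, KRT19 and KRT81 were called higher among 7 members (KRT37 and KRT86 left out), against 2.44% of genes. When libraries were scaled by their totals, without TMM factors, the median of all tested genes was 0.065, and the calls went from 948 higher and 1085 lower to 1455 and 768.

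**Figure D2:**
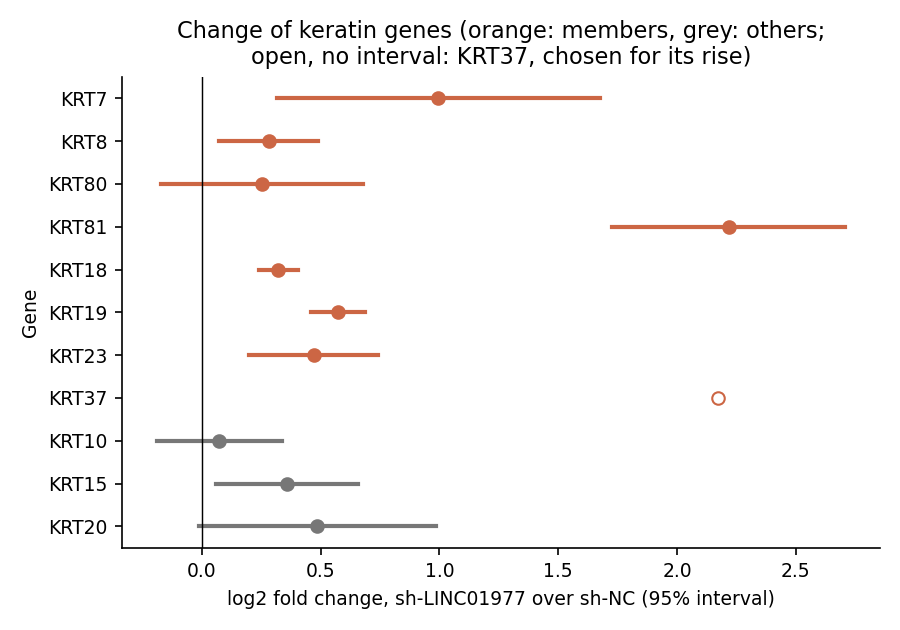
Log2 fold change of sh-LINC01977 over sh-NC with its 95% interval from edgeR for 8 members (orange) and the 3 other keratins past the filter (grey); KRT37 is open and without an interval because it was chosen for its rise. KRT81 lies far to the right of KRT18, KRT19 and KRT23, and the intervals of KRT10, KRT20 and KRT80 cross 0.

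KRT18, the type I partner of KRT8 in hepatocytes, rose. Its counts were 26945, 25416 and 30005 in sh-NC and 35373, 38399 and 32258 in sh-LINC01977, or 507 ± 10.5 and 633 ± 8.4 CPM. All 3 knockdown libraries lay above all controls, and the spread within each group was small beside the gap. Its log2 fold change of 0.32 (standard error 0.035) passed the test (adjusted p = 0.00248, edgeR).

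KRT8, the type II partner, moved by a like amount with more spread. Its CPM were 1081, 1030 and 1173 in sh-NC and 1272, 1498 and 1222 in sh-LINC01977. The groups did not overlap, but the second knockdown library stood above the other two. The log2 fold change was 0.28 with a 95% interval of 0.074 to 0.49, and after adjustment over all genes it did not pass (adjusted p = 0.0779, edgeR). Without the second sh-LINC01977 library it was 0.19, a 1.5 times smaller value. The ratio of KRT8 to KRT18 FPKM was 1.02, 0.935 and 1.08 in sh-NC and 0.925, 1.11 and 0.912 in sh-LINC01977, with overlap between groups (exact two-sided permutation test, p = 0.8, where 3 against 3 allow no p under 0.1).

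KRT19, a type I keratin of bile duct cells and of many carcinomas, had the largest change among the abundant keratins. Its counts were 23014, 23217 and 25802 in sh-NC and 36252, 40582 and 33622 in sh-LINC01977, which is 444 ± 24.4 and 660 ± 6.9 CPM. The knockdown libraries were tightly grouped and well above the controls. Its log2 fold change of 0.57 (standard error 0.048) passed as well (adjusted p = 0.00129, edgeR). KRT19 took 35.6% to 38.5% of the members' summed FPKM in sh-NC and 39.7% to 41.7% in sh-LINC01977.

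KRT23 had counts of 1340, 1169 and 1100 in sh-NC and 1641, 1898 and 1636 in sh-LINC01977, or 22.3 ± 3.2 and 30.9 ± 1.0 CPM. The groups did not overlap, and sh-NC replicate 3 was lowest. The log2 fold change of 0.47 (standard error 0.114) passed narrowly (adjusted p = 0.0377, edgeR). The call was lost in the fit of all listed genes (adjusted p = 0.0627, edgeR), without sh-LINC01977 replicate 1, 2 or 3 (0.0775, 0.102 and 0.0998), without sh-NC replicate 2 (0.0684) and with a replicate block (0.0781).

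KRT80 had counts of 871, 494 and 762 in sh-NC and 871, 1012 and 717 in sh-LINC01977. The groups overlapped and no difference was resolved, with a log2 fold change of 0.25 and a 95% interval of -0.17 to 0.68 (adjusted p = 0.387, edgeR). KRT7, the type II partner of KRT19 in bile ducts, was below the filter, with counts of 56, 32 and 56 in sh-NC and 97, 129 and 73 in sh-LINC01977. Its groups did not overlap, and without the filter its log2 fold change came to 0.995, with a 95% interval of 0.32 to 1.67, which did not pass after adjustment (adjusted p = 0.115, edgeR).

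KRT81 and KRT37, both hair keratins, were at traces in sh-NC. KRT81, a type II hair keratin also seen in some carcinomas, had 31, 23 and 36 counts in sh-NC and 149, 150 and 130 in sh-LINC01977. Its CPM went from 0.549 ± 0.075 to 2.57 ± 0.13, with a wide gap between groups and little spread within them. The fold was 4.65 and the log2 fold change 2.22, standard error 0.206 (adjusted p = 0.00159, edgeR), and 2.20 when every listed gene was fitted (adjusted p = 0.00289). Of the 6 tested members other than KRT37 it was the 1 past the study's thresholds of a fold of 2 and an unadjusted p of 0.05, as were 1.55% of tested genes in the upward direction. KRT7, not in that count, lay just under a fold of 2, and leaving out 1 library gave log2 values of 0.82 to 1.13. KRT86, the near copy around it, had counts of 0 in 5 libraries, and how reads that fit both genes were assigned is not stated.

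KRT37 is a type I hair keratin, known in hair follicles for its response to androgens. Its counts were 56, 46 and 22 in sh-NC and 206, 237 and 148 in sh-LINC01977, and its CPM were 1.03, 0.932 and 0.374 against 3.74, 3.89 and 2.87. Library number 3 was lowest in each group, and the groups lay far apart. The fold was 4.51, a log2 fold change of 2.17, a value that chose the gene and is not tested here. AC003958.2, which surrounds KRT37 on the opposite strand, had 16, 0 and 27 counts in sh-NC and 67, 65 and 54 in sh-LINC01977, and its part in the counts of KRT37 was not tested. Fitted without the filter, AC003958.2 came to 2.10 on the log2 scale with an SE of 0.88 (adjusted p = 0.280, edgeR).

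Of the members, KRT37 and KRT8 have an entry in the RefSeq promoter table (GRCh38.p14). The 250 bases before the KRT37 start (chr17:41424586-41424835, minus strand) are shown because KRT37 is the member picked for its rise. This RefSeq start lies upstream of base 41424523, where the KRT37 interval given above begins on the minus strand. Positions below count from the RefSeq start. Capitals mark matches, on either strand, to the motifs searched.
KRT37: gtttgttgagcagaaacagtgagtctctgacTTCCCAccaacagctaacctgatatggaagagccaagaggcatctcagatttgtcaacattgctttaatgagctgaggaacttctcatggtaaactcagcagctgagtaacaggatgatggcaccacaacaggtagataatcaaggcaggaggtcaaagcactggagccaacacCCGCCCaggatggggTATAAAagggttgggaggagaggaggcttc

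The letters of a TATA box, TATAAA, begin at position -30 from the start and occur in 11.5% of 35116 promoter windows of 300 bases. An SP1-like motif, GGGCGG, begins at -45 on the other strand and is found in 45.0% of windows. A motif of RBPJ, the DNA-binding factor of the Notch pathway, begins at -219 and at 19, again on the other strand. Its letters TGGGAA are held by 24.0% of windows. An AP-1 motif, TGANTCA, is held by 7.71% of windows but not by this one, and no match overlapped another. These matches are letters in a window and not sites shown to be bound. The KRT8 window of the same promoter table held no match to any of these motifs.

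The 3 tested genes whose pattern over the 6 libraries was most like that of KRT37, by the root mean square difference of centred log2 CPM, were AL157702.2 (0.19), CRABP2 (0.25) and AC004585.1 (0.29), out of 13451 compared. KRT81 came 36th by this measure with 0.56. KRT23 ranked 656 and KRT19 675, while KRT18 ranked 1690, KRT80 2176 and KRT8 2299. The measure follows the size of the rise that chose KRT37, so these ranks describe likeness to KRT37 over 6 libraries in 2 groups and nothing further.

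Summed by type, keratin RNA was higher in sh-LINC01977 on each side of the pair. Type I keratins without KRT37 summed to 269, 295 and 282 FPKM in sh-NC and 408, 403 and 409 in sh-LINC01977, a fold of 1.44. Type II keratins summed to 127, 122 and 139 FPKM in sh-NC and 158, 183 and 154 in sh-LINC01977, a fold of 1.28. KRT8 alone held 123, 119 and 136 FPKM of these sh-NC sums. In CPM, which carry the TMM factor, the folds were smaller, at 1.36 for type I and 1.22 for type II. Neither sum overlapped between groups, and each gave p = 0.1 by the exact two-sided permutation test, the smallest that 3 against 3 can give (0.2 after adjustment over the 4 values tested). The ratio of type I to type II was 2.19 ± 0.21 in sh-NC and 2.48 ± 0.24 in sh-LINC01977 (SD, n = 3), with overlap between groups (exact permutation test, p = 0.2, adjusted 0.267), so a shift in the balance was not resolved.

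**Figure D3:**
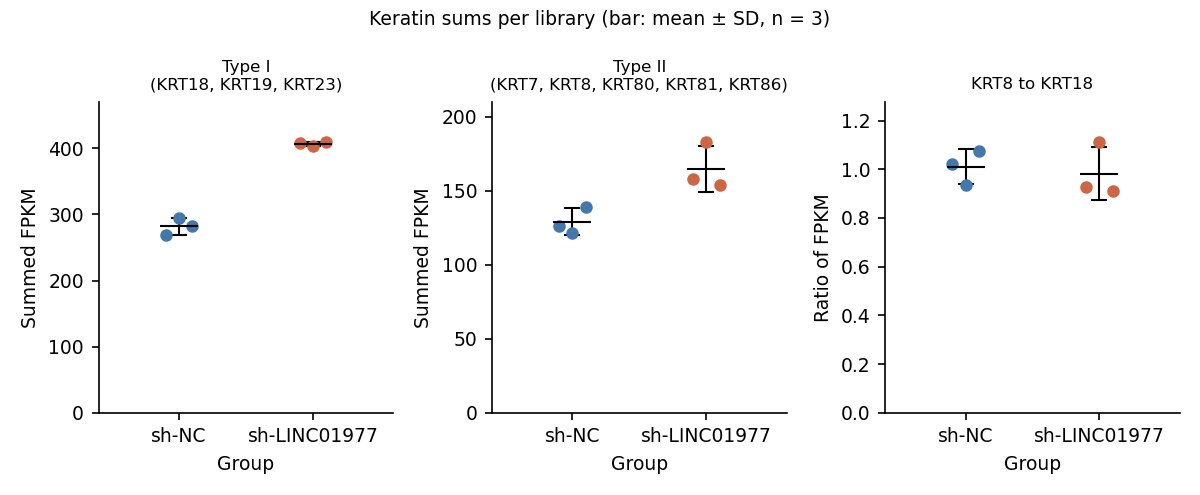
Summed FPKM of type I keratins (KRT37 left out), summed FPKM of type II keratins and the KRT8 to KRT18 ratio in each library, with mean ± SD (n = 3). The sums do not overlap between groups, at 282 and 407 FPKM for type I and 129 and 165 for type II, and the ratio overlaps.

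The table lists 25 keratin genes without pseudogenes, of which 16 are no members, and 3 of those passed the filter. KRT10, a keratin of the epidermis, had a log2 fold change of 0.07 (adjusted p = 0.699, edgeR). KRT15, which lies 1087 bases from KRT19, had 0.36 (adjusted p = 0.108) and KRT20, an intestinal keratin, 0.49 (adjusted p = 0.174). None of the 3 passed the test. The 13 other keratins, below the filter, summed to 49, 96 and 58 counts in sh-NC and 134, 216 and 132 in sh-LINC01977, without overlap in counts or in CPM. All genes below the filter together also took a larger share of counts in sh-LINC01977, at 0.496% to 0.514% against 0.422% to 0.435%, and the part of this in the keratin sum was not tested. Of the 13, 10 had a log2 fold change above 0 when every listed gene was fitted, as did 54.3% of the 15701 genes below the filter. By edgeR 0 of the 13 were called at an adjusted p under 0.05, with at most 55 counts in a library. No listed gene had 0 counts in every library, so some of the 13 are listed only through counts in a single group, mostly sh-LINC01977. Of 39 listed keratin pseudogenes 2 passed the filter, KRT8P12 with 0.29 (adjusted p = 0.330, edgeR) and KRT8P3 with -0.07 (adjusted p = 0.864). KRT8P3 shares 19.0% of the windows of KRT8.

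In the type II cluster, from KRT80 to KRT18 on chromosome 12, 4 of 12 listed genes were tested, all of them keratins. On chromosome 17, from KRT10 to KRT17, 9 of 32 listed genes were tested, 6 of them keratins. KRT18 and KRT81 were the genes called in the former, and KRT19 and KRT23 in the latter, KRT37 aside.

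Among genes whose products work with keratin filaments, few were called. Of 13 tested keratin partners 1 was called higher and 1 lower, shares near the background of 7.05% and 8.07%, with a median log2 fold change of 0.01. TGM2, a transglutaminase that crosslinks keratins in hepatocyte inclusions, rose from a mean FPKM of 6.45 ± 0.13 to 19.1 ± 1.3 (log2 fold change 1.50, adjusted p = 0.000321, edgeR). Among 12 tested genes of desmosomes and filament linkers, which anchor keratins at cell junctions, 1 was called higher and 2 lower, beside the same background, with a median of 0.10. PKP2, a plakophilin, rose by 0.54 (adjusted p = 0.0190, edgeR), while the linker PPL fell by 0.41 and the desmosomal cadherin DSC2 fell by 0.32 (adjusted p = 0.00691 and 0.0382). Of 5 other intermediate filament genes tested, 0 were called higher and 2 lower, SYNM (-0.49) and the lamin LMNB2 (-0.16). VIM, the mesenchymal filament, was below the filter with 48, 83 and 64 counts in sh-NC and 38, 30 and 4 in sh-LINC01977. It did not pass in the fit of all listed genes (log2 fold change -1.53, adjusted p = 0.294, edgeR).

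**Figure D4:**
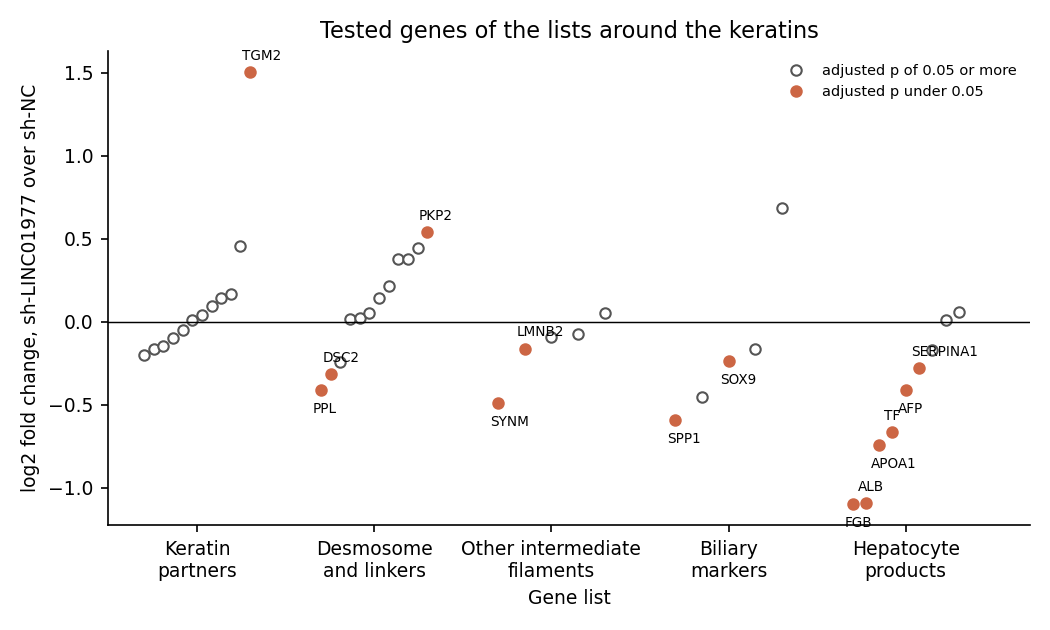
Log2 fold change of each tested gene in 5 lists, with filled points for an adjusted p under 0.05 (edgeR) and names beside them; 1 keratin partner is not drawn. TGM2 at 1.50 stands highest, and 6 hepatocyte products lie below 0 and pass the test.

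Markers of cell types moved beside the keratins, and their part in the keratin changes was not tested. Of 9 hepatocyte products 0 were called higher and 6 lower, beside a background of 7.05% and 8.07%, with a median log2 fold change of -0.41. Their summed FPKM was 4893 to 5278 in sh-NC and 3655 to 3691 in sh-LINC01977. ALB fell by 1.09, FGB by 1.10, APOA1 by 0.74 and AFP by 0.41 on the log2 scale, with adjusted p between 0.000175 and 0.00169 (edgeR). RNA of the 6 called products was lower in the libraries in which that of KRT18 and KRT19 was higher, and the rest were not called. In bulk RNA fewer cells of a type and less RNA per cell cannot be told apart.

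Bile duct markers other than keratins had 2 calls among those past the filter, each of them lower. Of 5 tested, 0 were called higher and 2 lower, SPP1 by -0.60 and SOX9 by -0.24, and the list's summed FPKM was 508 to 559 in sh-NC and 382 to 404 in sh-LINC01977. PROM1, below the filter, was called higher in the fit of all listed genes (log2 fold change 0.84, adjusted p = 0.0350, edgeR), and CFTR was not analysed here. Mesenchymal markers had 2 tested genes, of which PDGFRB rose (log2 fold change 1.47, adjusted p = 0.0062, edgeR), with a summed FPKM of 16.7 to 17.8 in sh-NC and 16.8 to 20.1 in sh-LINC01977. COL3A1 had 0 counts in 5 of 6 libraries. Markers of stratified epithelium had 3 tested genes, of which S100A2 rose (1.62, adjusted p = 0.0107, edgeR) and CSTA fell (-0.76, adjusted p = 0.00536), and their summed FPKM of 8.77 to 9.98 in sh-NC overlapped that of 8.39 to 10.6 in sh-LINC01977. TP63 and IVL, which define that epithelium, had at most 4 counts in any library.

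Regulators of hair keratins were at traces too. None of the 5 listed ones passed the filter, and their summed FPKM was 0.462 to 0.792 in sh-NC and 0.905 to 1.02 in sh-LINC01977. HOXC13, which activates hair keratin genes, had 23, 23 and 75 counts in sh-NC and 34, 57 and 36 in sh-LINC01977, with overlapping groups. DLX3, a homeobox factor of the hair follicle named here after its values were seen, had 39, 23 and 44 counts in sh-NC and 80, 96 and 80 in sh-LINC01977 and did not pass in the fit of all listed genes (log2 fold change 1.23, adjusted p = 0.0535, edgeR). FOXN1 and GATA3 had at most 10 counts in a library.

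Across 17 other ways of fitting, KRT18 and KRT19 kept their call in 17, while KRT80 passed in 0. KRT81 kept its call in the 16 in which it was tested. Of those 16, all but the fit of all listed genes used the filter that KRT81 passed only through its level in sh-LINC01977. KRT8 passed in 5 of 17, with adjusted p of 0.0288 by DESeq2 and 0.0356 by edgeR with library totals. Its other passes were the limma fits on FPKM (adjusted p of 0.0418 to 0.0426), which like library totals carry no TMM factor. With 1 library left out KRT8 did not pass (adjusted p of 0.0785 to 0.186, edgeR). KRT23 passed in 11 of 17.

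**Figure D5:**
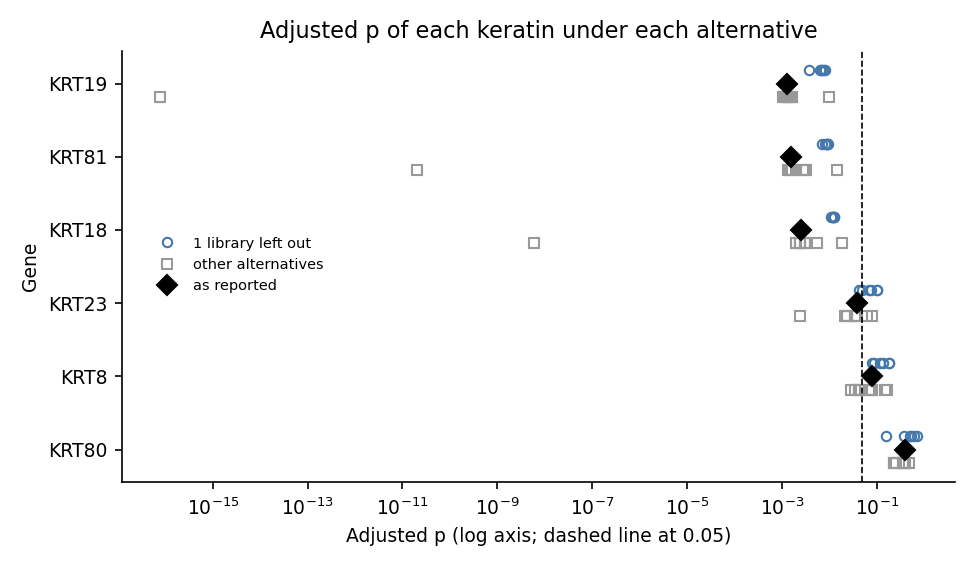
Adjusted p (log axis) of 6 keratins as reported (diamonds), with 1 library left out (circles) and under the other alternatives (squares), with a dashed line at 0.05. KRT18, KRT19 and KRT81 lie left of the line throughout, KRT8 and KRT23 lie on both sides of it, and KRT80 lies right of it. Except in the fit of all listed genes, KRT81 was included only through its level in sh-LINC01977.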

How the data were processed

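RNA sequencing of 6 HepG2 libraries was analysed, 3 sh-NC and 3 sh-LINC01977, grouped by their labels. The counts deposited by the authors are whole numbers per gene without normalization, and the FPKM values deposited by the authors are scaled to transcript length and library total. The submitters' processing notes name bcl2fastq 2.0, HISAT2, StringTie, DESeq2, limma and hg38, without their roles. All member intervals equal those of GENCODE 29 (GRCh38), which gave the transcripts.

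edgeR 4.0.16 in R 4.3.3 compared the groups by its quasi-likelihood test with TMM scaling and Benjamini-Hochberg adjustment, on the 13452 genes whose mean FPKM reached 0.5. Genes below the filter were read from a fit of all 29153 genes. CPM are counts over the tested total times its TMM factor. Alternatives were DESeq2 1.42.0 and limma 3.58.1 on log2(FPKM + 0.1) (pseudocounts 1 and 0.01 too), library totals, other filters, counts divided by 4, a replicate block and each library left out. The fits were tested on simulated data. The members and gene lists were chosen with earlier results of these data known. The genes named are the members, other keratins past the filter, genes overlapping members, at most 4 called genes a list, and the 3 genes most like KRT37, besides DLX3, HOXC13 and those named for counts near 0. A called gene of the partner list and a sequence stretch are not reported here.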

Additional observations from a re-analysis of the deposited data

How the results depend on the processing

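The number of members called higher was 4 and ranged from 3 to 5 over 17 alternatives, 3 to 4 with 1 library left out. Throughout, 0 were called lower. These counts include KRT81, which, except in the fit of all listed genes, was tested only through its level in sh-LINC01977. Raising the FPKM cutoff to 1 left KRT81 (mean FPKM 0.661) untested, so its count of 3 reflects no lost call. Over the same alternatives 549 to 1455 genes of the whole table were called higher, so the background of these counts moved too. With a replicate block 3 members were called higher, since KRT23 was lost, and 636 of all genes. Same-numbered libraries did not deviate together over the tested genes (r = -0.028, 0.026 and 0.055). The labels do not say whether the numbers pair the samples, and a small r over all tested genes cannot decide it. With 1 library left out, log2 fold changes were 0.31 to 0.33 for KRT18, 0.54 to 0.62 for KRT19, 0.36 to 0.55 for KRT23, 0.19 to 0.34 for KRT8, 0.096 to 0.43 for KRT80, 0.82 to 1.13 for KRT7, 2.11 to 2.30 for KRT81 and 1.84 to 2.43 for KRT37. On the log2(FPKM + 1) scale KRT37 came to 1.07 and KRT81 to 0.78, as the pseudocount shrinks low genes. Genes called higher over the whole table were 549 to 669 and lower 627 to 738 with 1 library left out, where fewer samples were fitted. Depth limits KRT7, KRT37, KRT81 and KRT86, whose counts in sh-NC were 56 or fewer, and a count of 4 was more frequent (8101 gene and library pairs) than 3 (2780) or 5 (1758), so that a count may not be 1 independent fragment. Dividing all counts by 4 changed no call among the 6 tested members other than KRT37, and was not run for KRT7 or KRT86.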
